A study of Mus musculus with 7 samples.

Results

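The miR-30 family was followed through 10 named rows, the 5p and 3p arms of miR-30a, miR-30c, miR-30d and miR-30e and the 5p arm of miR-30b, out of 1914 mouse miRNA rows counted in each library. The rows were taken by name (mmu-miR-30a-5p, mmu-miR-30a-3p, mmu-miR-30b-5p, mmu-miR-30c-5p, mmu-miR-30c-1-3p, mmu-miR-30c-2-3p, mmu-miR-30d-5p, mmu-miR-30d-3p, mmu-miR-30e-5p and mmu-miR-30e-3p, written below without the species prefix). All 10 were among the 534 mouse miRNAs with enough reads to be tested. Small RNA had been sequenced from lateral ventricles together with choroid plexus of adult C57BL/6J mice. There were 4 libraries from mice labelled TAp73 knockout and 3 from mice labelled wild type, and the labels name no treatment. Trp73 encodes the transcription factor p73, and TAp73 names its forms with a transactivation domain. The series title places the comparison in brain multiciliogenesis, the making of cells with many motile cilia. The labels give neither the allele nor the exact age, and whether the libraries are from different animals is not stated outright. The p-values below therefore describe spread among libraries, which may be partly technical. Trp73 itself is not measured by small RNA reads, so the knockout label was not checked against its target.

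A miRNA is cut from a hairpin RNA, whose 2 arms give a 5p and a 3p mature strand. One strand is usually loaded into an Argonaute protein far more often than the other, and its seed (bases 2 to 8) pairs with messenger RNAs and lowers their output. The miR-30 family is broadly expressed and abundant in brain, heart, kidney and many epithelia, and its 5p arms are known for targets in cell fate, autophagy and fibrosis, such as Snai1, Becn1 and Ccn2. In the choroid plexus and ventricle wall such a family would be shared by epithelium, ependyma, glia and neurons. In bulk tissue, fewer cells of a type and less RNA per cell cannot be told apart.

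The mature sequences are shown first because the family is defined by its seed and because arms that differ by 1 base compete for the same reads. Sequences are from RefSeq (build GRCm38.p6), which matched 7 of the 10 members, and are written 5′ to 3′ with the seed in capitals. The 5p arms of miR-30a, miR-30c and miR-30e carry 1 seed, GUAAACA, and so does miR-384-5p, the other mature mouse miRNA of the same table with these letters.
miR-30a-5p: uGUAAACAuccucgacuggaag
miR-30e-5p: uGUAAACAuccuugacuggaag
miR-30c-5p: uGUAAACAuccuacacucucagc
miR-384-5p: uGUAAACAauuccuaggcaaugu

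The 3p arms carry other seeds, UUUCAGU in miR-30a and miR-30e and UGGGAGA in both miR-30c hairpins.
miR-30a-3p: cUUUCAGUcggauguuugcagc
miR-30e-3p: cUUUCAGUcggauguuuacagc
miR-30c-1-3p: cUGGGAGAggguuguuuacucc
miR-30c-2-3p: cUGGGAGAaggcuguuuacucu

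With positions counted from 1 at the 5′ end, miR-30a-5p and miR-30e-5p differ by C13U alone and miR-30a-3p and miR-30e-3p by G18A alone. How reads that fit both were assigned is not given in the sources used here, so the separate values of such pairs are less certain than their sum. The 3p arms of the miR-30c hairpins differ at 3 positions, G9A, U12C and C22U, counted from miR-30c-1-3p. The hairpins of miR-30a and miR-30e show where both arms come from, with the 2 mature arms in capitals.
Mir30a, chr1:23272269-23272339, plus strand: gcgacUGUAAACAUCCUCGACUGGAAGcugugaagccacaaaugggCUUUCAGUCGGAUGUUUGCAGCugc
Mir30e, chr4:120772606-120772697, minus strand: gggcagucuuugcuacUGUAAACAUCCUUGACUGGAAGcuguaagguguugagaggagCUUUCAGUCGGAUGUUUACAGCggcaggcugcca

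Mir30e and Mir30c-1 (chr4:120769534-120769622, minus strand) lie 2983 bases apart in 1 intron of Nfyc, on its own strand, between exons 5 and 6 of the transcript Nfyc-201 (GENCODE M21, GRCm38). Nfyc encodes the gamma subunit of NF-Y, the factor that binds CCAAT boxes. Mir30a lies in no other annotated gene, and Mir30c-2 (chr1:23291701-23291784, plus strand) follows it after 19361 bases, within an exon of the long noncoding RNA gene Gm27028. The mature miR-30c-5p is identical from Mir30c-1 and Mir30c-2, so its reads cannot be divided between the loci. Sequences and positions of the miR-30b and miR-30d members are not shown.

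Mouse miRNA reads numbered 955057 to 9233235 per library, fewest in knockout replicate 3 and most in knockout replicate 1. A count of 0 allowed up to 3.14 counts per 1000000 mouse miRNA reads (CPM) in the shallowest library and 0.325 CPM in the deepest. Marker miRNAs of the labelled tissue were present. The summed choroid plexus list, almost wholly miR-204-5p, ran from 2015 to 11789 CPM, lowest in wild type replicate 2 and knockout replicate 3, with 3 of 4 members tested and miR-211-3p at 0 reads. The multiciliated cell list (miR-34b/c and miR-449) stood at 385 to 760 CPM in knockouts and 1291 to 3675 CPM in wild types, with 6 of 7 members tested, 6 called and miR-449b at 0 reads. These 6 were all of the calls among the 534 miRNAs tested (1.12%), 4 miR-34b/c arms lower and 2 miR-449 arms higher in knockouts. The sum of this list was mostly miR-34c-5p, at a mean of 1346 CPM of 1536 CPM over the 7 libraries. A list of neuronal miRNAs (5 of 5 tested, 0 called) summed to 33861 to 38148 CPM in knockouts and 19899 to 33560 CPM in wild types. These sums did not overlap in CPM, but knockout replicate 1 (33861) and wild type replicate 2 (33560) lay close together. Other scalings were not checked for this list. Lists for oligodendrocytes (356 to 680 CPM), leukocytes and microglia (531 to 782), red blood cells (138 to 262), endothelium (785 to 985, with miR-126a-5p at 0) and other epithelia (86.3 to 147.8) overlapped between genotypes, with miR-219a-5p at 0 reads in the first. Because the choroid plexus list was lowest in wild type replicate 2 and knockout replicate 3, results are also given without both libraries.

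The miR-30 family took 7.02% ± 0.68 of mouse miRNA reads (SD, n = 7 libraries). Summed over the 10 members it stood at 62825, 75723, 66132 and 73035 CPM in knockout replicates 1 to 4 and at 78940, 73337 and 61318 CPM in wild type replicates 1 to 3. The highest and the lowest libraries were both wild types, so the knockouts lay inside the wild type range. The knockouts averaged 69429 ± 5975 CPM (SD over 4 libraries), the wild types 71199 ± 9004 CPM (SD over 3). On the log2 scale the difference was -0.03 ± 0.12 (SE), and it was 0.04 with TMM scaling, so its sign depended on the scaling. It was 0.015 without knockout replicate 3 and wild type replicate 2, -0.14 when wild type replicate 3 was left out and 0.046 when wild type replicate 1 was. No test was run on this sum.

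**Figure D1:**
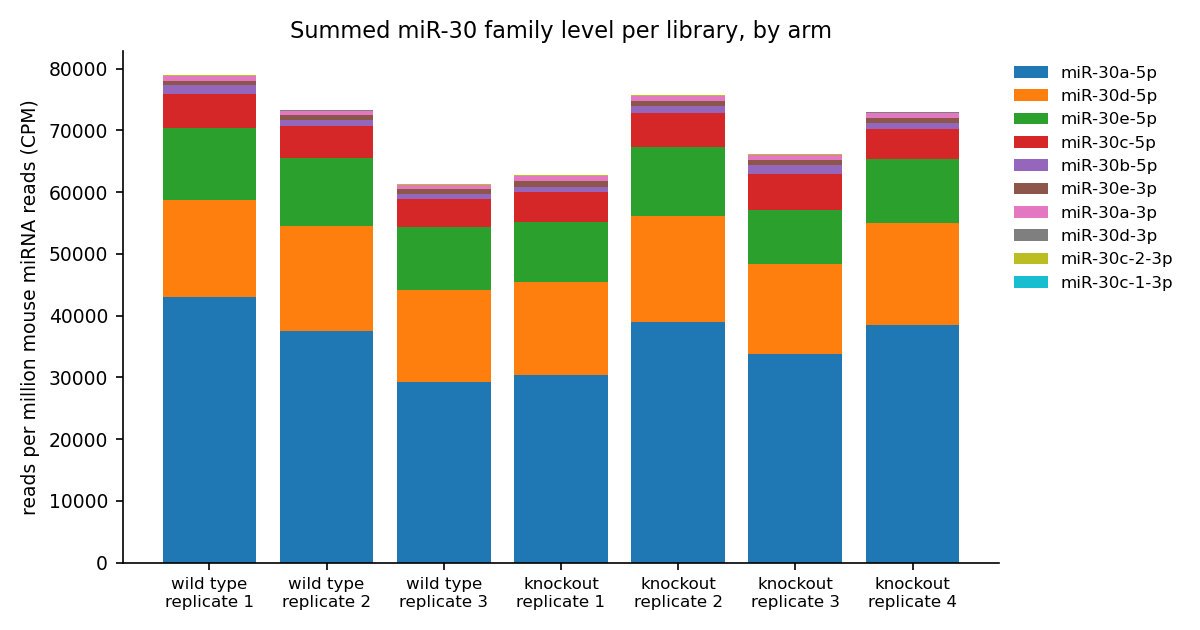
Summed level of the 10 miR-30 arms in each library, in CPM, with each bar divided by arm. The wild types span 61318 to 78940 CPM and the knockouts lie between them, and miR-30a-5p makes up the largest block in each bar.

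Among the 5p arms, which carry the shared seed, miR-30a-5p was the most abundant in each of the 7 libraries. It stood at 30462, 39018, 33776 and 38524 CPM in the knockouts and at 43076, 37545 and 29296 CPM in the wild types. It was thus the 7th most abundant of all mouse miRNAs by mean CPM, and its wild type values enclosed all 4 knockout values. miR-30d-5p followed at 15834 ± 1081 CPM (SD, n = 7), miR-30e-5p at 10358 ± 970.9, miR-30c-5p at 5226 ± 459.0 and miR-30b-5p at 1081 ± 240.5. Within the 5p sum, miR-30a-5p made up 49.0% to 55.7%, miR-30d-5p 20.2% to 24.95%, miR-30e-5p 13.6% to 16.9%, miR-30c-5p 6.88% to 9.19% and miR-30b-5p 1.30% to 2.171%. The 5 arms thus kept their order in all 7 libraries.

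The 3p arms were much rarer and together made up 2.04% to 3.11% of the family. miR-30e-3p stood at 812.8 ± 80.3 CPM (SD, n = 7) and miR-30a-3p at 735.1 ± 77.6. Below these lay miR-30d-3p at 73.5 ± 6.61, miR-30c-2-3p at 73.4 ± 10.4 and miR-30c-1-3p at 37.3 ± 6.80 CPM. These 10 rows are of nearly equal length (22 or 23 bases for those with a sequence above), so levels were compared per read. Adapter ligation can favour some small RNAs over others, and that part was not tested.

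The order of the 10 levels was examined pair by pair within libraries with an exact sign-flip permutation test (two-sided, n = 7 libraries, 9 neighbouring pairs). For 7 pairs the higher arm led in 7 of 7 libraries (exact p = 0.016, the smallest possible, adjusted p = 0.020). miR-30a-5p was 2.26-fold above miR-30d-5p, which was 1.53-fold above miR-30e-5p. The narrowest of these 7 steps was miR-30e-3p over miR-30a-3p, at 1.11-fold. In knockout replicate 3 that lead was 750 against 736 reads. These arms differ by 1 base, and how reads that fit both were assigned is not given, so their order is less certain. miR-30b-5p and miR-30e-3p were not told apart (1.31-fold, higher in 6 of 7 libraries, exact adjusted p = 0.070), but this rested on knockout replicate 1, without which miR-30b-5p was higher in 6 of 6 libraries (1.41-fold, exact adjusted p = 0.035). Nor were miR-30d-3p and miR-30c-2-3p told apart (1.01-fold, higher in 3 of 7, exact adjusted p = 0.91), with or without any 1 library.

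**Figure D2:**
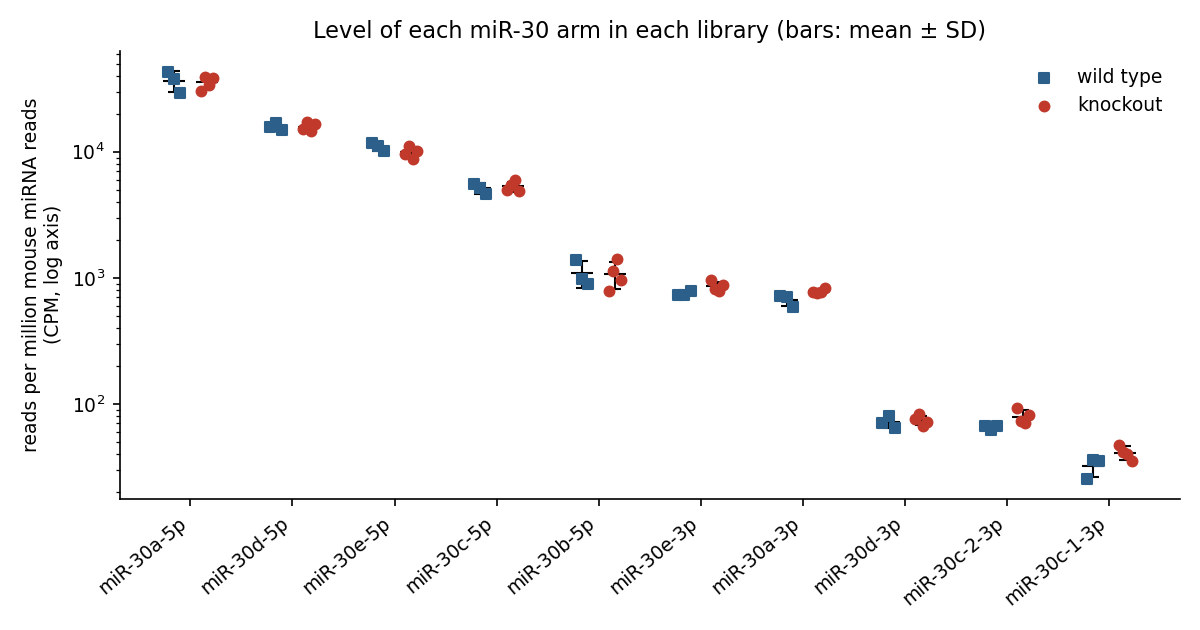
Level of each arm in each library, in CPM on a log axis, ordered by mean; squares are wild types, circles are knockouts and black bars are mean ± SD. The 5p arms of the genotypes overlap, while for miR-30e-3p, miR-30a-3p and miR-30c-2-3p each knockout lies above each wild type in CPM, a separation lost with upper quartile scaling.

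The 5p arms did not vary equally between libraries. miR-30d-5p was the steadiest, with a coefficient of variation of 6.83% and a highest to lowest ratio of 1.18, and miR-30b-5p varied most among the 5p arms, at 22.3% and 1.77. miR-30b-5p stood at 788.9, 1142, 1398 and 961.2 CPM in the knockouts and at 1397, 979.8 and 898.0 CPM in the wild types. The high libraries were knockout replicate 3 and wild type replicate 1, 1 of each genotype. Among the 10 pairs of 5p arms the log2 ratio varied least for miR-30d-5p to miR-30e-5p (SD 0.097, n = 7) and most for miR-30b-5p to miR-30d-5p (SD 0.34), and miR-30b-5p was in each of the 4 most variable pairs. Its steadiest ratio was to miR-30c-5p (SD 0.21).

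None of the 10 members was called in the comparison of knockouts with wild types by edgeR's quasi-likelihood test (adjusted p from 0.38 to 0.95, adjusted over all 534 miRNAs). Of all 534 miRNAs 1.12% were called (0.375% higher and 0.749% lower in knockouts), so 0 of 10 is near the background. The 5p arms centred on no difference, with log2 fold changes from -0.06 to 0.13 and a median of 0.04, beside -0.02 over all miRNAs tested. The interval of miR-30a-5p, 0.02 ± 0.15 (SE) with 95% limits of -0.32 and 0.36, corresponds to 0.803-fold to 1.28-fold. miR-30d-5p was at 0.07 ± 0.11, miR-30c-5p at 0.13 ± 0.13, miR-30b-5p at 0.04 ± 0.21 and miR-30e-5p at -0.06 ± 0.12. With library totals alone in place of TMM scaling, miR-30a-5p, miR-30b-5p and miR-30d-5p were below 0, at -0.048, -0.028 and -0.0038.

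The 3p arms among the members leaned higher in the knockouts without passing. miR-30b-3p, tested but not among the members, had the other sign (-0.19 ± 0.21, given below). The log2 fold changes of the 5 member 3p arms ran from 0.13 to 0.43, with a median of 0.31, beside -0.06 over the 273 3p arms tested. miR-30a-3p stood at 779.1, 759.3, 770.6 and 832.1 CPM in knockout replicates 1 to 4 and at 715.0, 700.8 and 589.0 CPM in wild type replicates 1 to 3. The groups did not overlap, and the lowest wild type was replicate 3. Exact 95% Poisson intervals (counting error only) of the nearest libraries did overlap. They were 739.9 to 779.0 CPM in knockout replicate 2 and 683.5 to 747.7 CPM in wild type replicate 1. The log2 fold change of miR-30a-3p was 0.31 ± 0.13 (edgeR adjusted p = 0.38), or 1.24-fold with 95% limits of 1.01 and 1.51.

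miR-30c-2-3p, the 3p arm of the hairpin on chromosome 1, stood at 92.7, 72.9, 71.2 and 81.2 CPM in the knockouts and at 66.4, 61.9 and 67.5 CPM in the wild types. Here too each knockout lay above each wild type, but by 3.75 CPM at the nearest. The lowest knockout value rested on 68 reads in replicate 3, whose exact 95% Poisson interval of 55.3 to 90.3 CPM covers all 3 wild type values (counting error only, since the reads carry no molecular identifiers). The log2 fold change was 0.37 ± 0.17 (edgeR adjusted p = 0.38).

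miR-30e-3p stood at 958.4, 816.2, 785.3 and 875.4 CPM in the knockouts and at 735.0, 735.7 and 783.6 CPM in the wild types. The groups were separated by 1.66 CPM only, between knockout replicate 3 (Poisson interval 730.1 to 843.6 CPM) and wild type replicate 3 (755.2 to 812.9 CPM). Its log2 fold change was 0.27 ± 0.12 (edgeR adjusted p = 0.38). The remaining 3p arms overlapped between genotypes: miR-30c-1-3p was at 35.05 to 47.4 CPM in knockouts and 25.6 to 36.2 CPM in wild types (0.43 ± 0.19, edgeR adjusted p = 0.38), and miR-30d-3p was at 67.0 to 82.5 against 65.0 to 80.9 CPM (0.13 ± 0.17, edgeR adjusted p = 0.77).

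Counted over members, 3 of 10 lay higher in each knockout than in each wild type, where 3.56% of all 534 miRNAs did so, 8.24% lay lower in each knockout and 11.8% did either. The count depended on the scaling: it was 4 with TMM or RLE scaling, which added miR-30c-1-3p, but 1 with upper quartile scaling, where miR-30c-1-3p alone was separated. The 3 separated in CPM were among the 5 members that are 3p arms, and miR-30a-3p and miR-30e-3p, 1 base apart, may share reads. Of the 273 tested 3p arms, 2.2% (6, with these 3 among them) lay higher in each knockout. None of the 5 members that are 5p arms did so, where 5.06% of the 237 tested 5p arms did. At an unadjusted edgeR p under 0.05, 4 members were higher (miR-30a-3p, miR-30c-1-3p, miR-30c-2-3p and miR-30e-3p), against 6.18% of all miRNAs, 5.13% of 3p arms and 7.17% of 5p arms; 12.9% of all miRNAs passed that level in either direction. This last count was also 4 with DESeq2, limma-voom or RLE scaling, and 3 with no robust estimation or without knockout replicate 3. Other libraries and scalings moved it more. It was 0 without knockout replicate 1, without knockout replicate 2 and without wild type replicate 3. Leaving out knockout replicate 4 gave 1, as did leaving out wild type replicate 1. It was 2 without wild type replicate 2, with or without knockout replicate 3, 2 with no filter, 2 where 3 or more libraries had to reach 10 CPM, and 0 with library totals alone or upper quartile scaling. The summed neuronal miRNAs also lay higher in each knockout in CPM, by the narrow gap given above, and their part in these values was not tested. Members of that list differed: miR-128-3p, the most abundant, was at 0.70 ± 0.20 (log2 fold change ± SE), miR-132-3p at 0.51 ± 0.17, miR-124-3p at 0.16 ± 0.21, miR-138-5p at 0.03 ± 0.23 and miR-137-3p at -0.18 ± 0.22, none of them called.

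**Figure D3:**
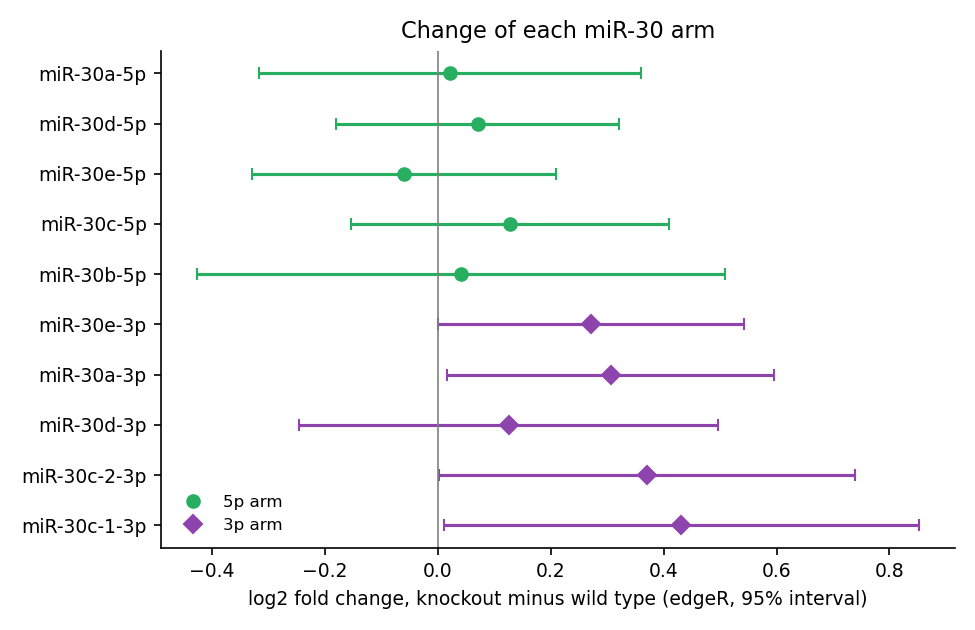
Log2 fold change of each member arm, knockout minus wild type, from edgeR, with its 95% interval. Circles are 5p arms and diamonds are 3p arms, and miR-30b-3p is not shown. The 5p arms lie between -0.06 and 0.13 and the 3p arms between 0.13 and 0.43, and none passed after adjustment over all 534 miRNAs.

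The ratio of 5p to 3p reads within a hairpin does not depend on the scaling between libraries. miR-30a gave 39.1, 51.4, 43.8 and 46.3 5p reads for each 3p read in knockout replicates 1 to 4 and 60.2, 53.6 and 49.7 in wild type replicates 1 to 3. Knockout replicates 1, 3 and 4 lay below all wild types, while knockout replicate 2 lay above wild type replicate 3, so the groups overlapped. The log2 ratio was lower in knockouts by a difference of -0.27 ± 0.11 (SE), which did not pass (exact permutation p = 0.086, two-sided, adjusted p = 0.13 over 3 ratios). The smallest p that 4 against 3 libraries allow is 0.029.

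For miR-30e the ratio was 10.1, 13.6, 11.2 and 11.7 in knockouts and 15.8, 14.98 and 12.9 in wild types. The same 2 libraries overlapped as for miR-30a. The log2 difference was -0.33 ± 0.13 (SE, exact permutation p = 0.086, adjusted p = 0.13). miR-30d had the most one-sided hairpin, with 198.4 to 228.2 5p reads for each 3p read in knockouts and 209.5 to 229.0 in wild types, and a log2 difference of -0.05 ± 0.06 (SE, exact permutation p = 0.40, adjusted p = 0.40). Summed over both of its hairpins, miR-30c gave 35.3 to 53.3 5p reads for each 3p read in knockouts and 44.7 to 60.6 in wild types. miR-30b, whose 3p arm is not among the 10 members, went the other way. It gave 58.98, 85.7, 116.1 and 76.9 5p reads for each 3p read in the knockouts and 100.5, 56.3 and 57.0 in the wild types. The groups overlapped, and the log2 difference of 0.26 ± 0.34 (SE), given with no test, rests on 11 reads of miR-30b-3p in knockout replicate 3.

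miR-30e, whose arms differ from those of miR-30a by 1 base each, was the less one-sided hairpin in all 7 libraries. Its 3p arm held 5.95% to 9.02% of the reads of both arms, against 1.63% to 2.49% for miR-30a. The 2 ratios moved in parallel between libraries. Each had an SD of 0.20 (miR-30a) or 0.23 (miR-30e) on the log2 scale, but their difference, 1.94 on average, had an SD of 0.049 and ran from 1.84 to 1.99 (n = 7). Knockout replicate 1 was the lowest library and wild type replicate 1 the highest for both. Arms 1 base apart may share reads, so the 2 ratios may not be separate measures, and this was not tested. For miR-30d the log2 ratio varied less, with an SD of 0.075.

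**Figure D4:**
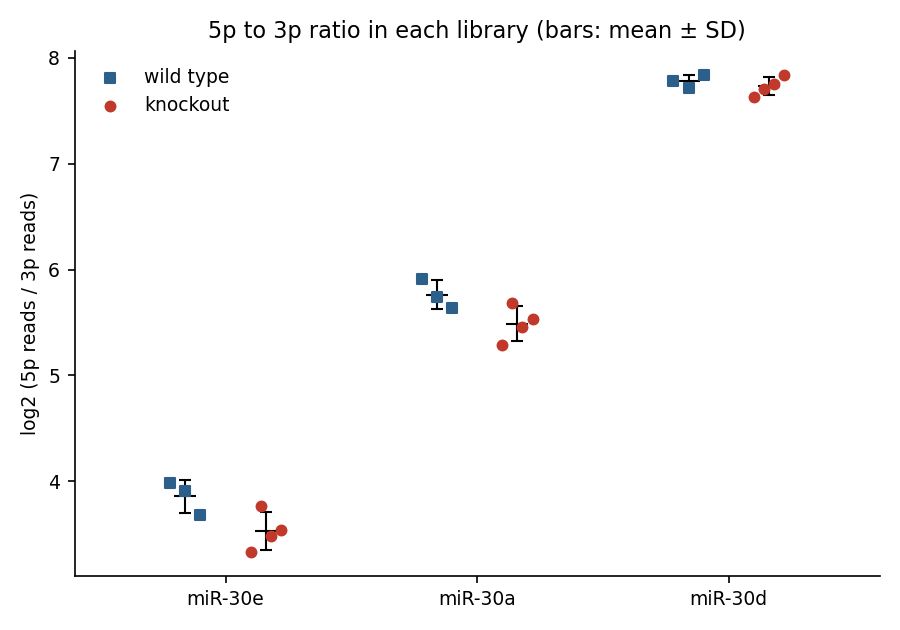
Log2 ratio of 5p to 3p reads in each library for 3 hairpins; squares are wild types, circles are knockouts and black bars are mean ± SD. Knockout replicate 2 overlaps the lowest wild type for miR-30a and miR-30e, and miR-30d lies near 7.75 in both groups.

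Set among all 143 hairpins with both arms tested, these differences were not extreme. The log2 ratio of 5p to 3p reads was lower in knockouts in 71 of the 143, with a median difference of 0.00. miR-30e ranked 21st, miR-30a 26th, miR-30d 56th and miR-30b 107th from the most negative. Groups were separated with the knockouts lower in 2.1% of the hairpins and in either direction in 6.29%, and none of these 4 miR-30 hairpins was among them. The ranks were not adjusted for depth.

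**Figure D5:**
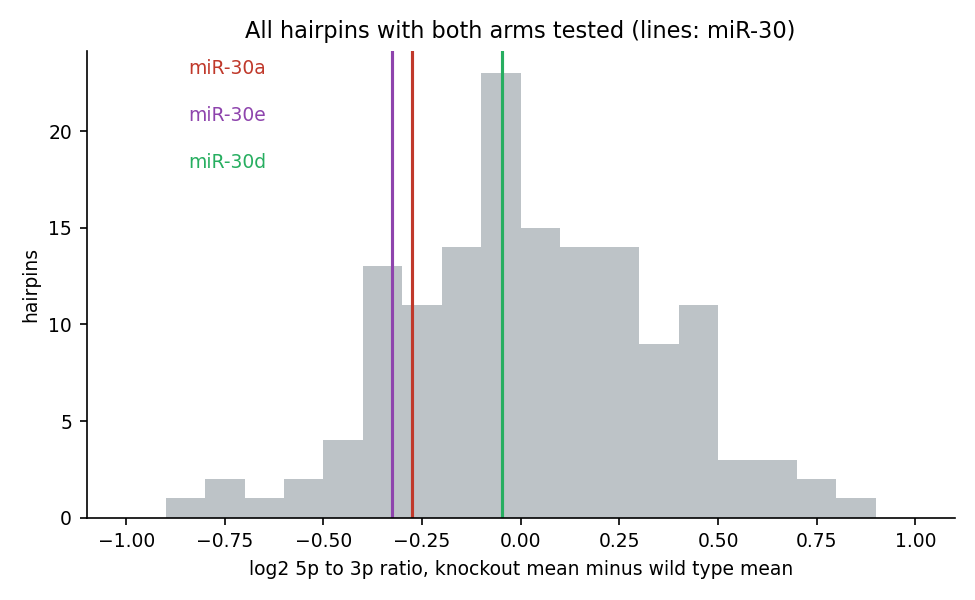
Histogram of the knockout minus wild type difference in the log2 5p to 3p ratio over 143 hairpins, with vertical lines at miR-30a (-0.27), miR-30e (-0.33) and miR-30d (-0.05). The lines for miR-30a and miR-30e fall within the left side of the distribution, not at its edge.

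The members made only from the intronic Nfyc hairpins (both arms of miR-30e and miR-30c-1-3p) were set against the members made elsewhere, with miR-30c-5p in neither part. For each 100 reads of the other members, the Nfyc members had 22.6, 20.5, 19.0 and 19.5 reads in knockout replicates 1 to 4 and 20.3, 20.9 and 23.8 in wild type replicates 1 to 3. The highest library was wild type replicate 3 and the lowest knockout replicate 3, and the groups overlapped. The log2 difference was -0.09 ± 0.09 (SE), given with no test, and it moved with single libraries: -0.017 without wild type replicate 3, -0.052 without knockout replicate 3, -0.14 without knockout replicate 1 and -0.13 without wild type replicate 1. Counting miR-30c-5p with the Nfyc members gave -0.03 and counting it with the others gave -0.09.

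The 3p arms of miR-30c differ between the Nfyc hairpin and the one on chromosome 1, so their reads can be set side by side. Their ratio is not a direct measure of the loci, since strand choice and adapter ligation may differ between the arms and were not tested. miR-30c-1-3p had 0.512, 0.574, 0.562 and 0.433 reads for each read of miR-30c-2-3p in the knockouts and 0.387, 0.585 and 0.525 in the wild types. The hairpin on chromosome 1 thus gave more 3p reads in all 7 libraries, and the log2 ratio differed between genotypes by 0.07 ± 0.20 (SE), given with no test. Within the Nfyc intron the main arm, miR-30e-5p, had 26.0 to 31.7 reads per 100 reads of miR-30a-5p in knockouts and 26.99 to 34.4 in wild types.

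Beyond the 10 members, the table held further rows of the same name or seed. miR-30b-3p, the minor arm of miR-30b, stood at 11.5 to 13.3 CPM in knockouts and 13.7 to 17.2 CPM in wild types. In CPM it was lower in each knockout, as 8.24% of all miRNAs were. The nearest libraries were knockout replicate 1 at 13.3 CPM (123 reads) and wild type replicate 1 at 13.7 CPM (37 reads). This narrow separation was not checked with other scalings. The log2 fold change of miR-30b-3p was -0.19 ± 0.21 (edgeR adjusted p = 0.73), so this 3p arm did not share the sign of the 5 others. miR-30f, annotated on the opposite strand of the Mir30e hairpin, had 6 reads in all and was not tested. miR-384-5p, which has the miR-30 seed, stood at 446.1, 374.3, 231.4 and 299.2 CPM in knockouts and at 392.5, 462.6 and 633.1 CPM in wild types. The groups overlapped, and the log2 fold change of -0.46 ± 0.22 did not pass (edgeR adjusted p = 0.42). Its sister arm miR-384-3p was at -0.41 ± 0.17 (edgeR adjusted p = 0.38). Rows of other species named miR-30 numbered 69, of which 3 held reads, 39 in all, beside 2108273 reads of the members.

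Among the 194 other miRNAs with a mean of at least 100 CPM, the 5 whose log2 ratio to the summed miR-30 5p arms varied least over the 7 libraries were miR-101a-3p, miR-29c-3p, miR-15a-5p, miR-484 and miR-186-5p. Their SDs were 0.062, 0.073, 0.084, 0.087 and 0.098, against a median of 0.29 over the 194. miR-101a-3p, known for targeting Ezh2, stood at 2064 ± 163.1 CPM (SD, n = 7). miR-29c-3p, known for targeting collagens, stood at 899.0 ± 93.1 CPM, and miR-15a-5p, known for targeting Bcl2, at 255.7 ± 29.0 CPM. miR-484 was at 308.6 ± 29.6 CPM and miR-186-5p at 3153 ± 218.3 CPM. None of the 5 was called, beside 1.12% of all 534 miRNAs, with log2 fold changes from -0.08 to 0.17 (edgeR adjusted p from 0.67 to 0.92). The 5p sum itself differed by -0.04 on the log2 scale. Small fold changes thus follow from choosing miRNAs by a steady ratio to it.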

How the data were processed

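The authors deposited 1 table of raw counts per library, with 66573 rows, each row a named small RNA or a closing line. The 5 closing lines for unassigned reads hold 0. Per the labels, phenol/chloroform total RNA went into TruSeq small RNA libraries. Per the submitters' processing notes, bcl2fastq 2.17.1.14, DESeq2 and build mm10 were used, without roles; aligner and annotation: not given in the sources used here. Groups follow the genotype label, and replicate numbers follow accession order. Levels are counts per 1000000 reads of all mouse miRNA rows (CPM). Fold changes come from edgeR 4.0.16 in R 4.3.3 (TMM scaling, filterByExpr with a minimum count of 10 and total of 15, robust quasi-likelihood test, Benjamini-Hochberg adjustment, called under 0.05). The fit was also run on simulated data with larger changes, which does not show how often changes as small as those of the members are called. Ratios use a pseudocount of 0.5 reads and exact permutation tests over 35 splits. Alternatives were DESeq2 1.42.0, limma-voom (limma 3.58.1), other scalings and filters, rows of all species summed, and each library left out. Named are the members, other miR-30 rows, miRNAs with the same seed, 5 most alike miRNAs and summed marker lists. Members, lists and rules were chosen with earlier results of these data known.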

Additional observations from a re-analysis of the deposited data

How the results depend on the processing

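With each alternative the number of miR-30 members called stayed at 0. The number of all mouse miRNAs called, 6 in edgeR, was 13 with DESeq2, 19 with no filter, 19 without knockout replicate 3 and wild type replicate 2 together, and from 3 to 14 when each library was left out in turn (3 without wild type replicate 1, 14 without wild type replicate 2). The signs of 5p arms near 0 were not stable: miR-30a-5p was at -0.038 with upper quartile scaling and -0.048 with library totals alone, and ran from -0.14 to 0.16 with each library left out, below 0 without knockout replicate 2 (-0.033), knockout replicate 4 (-0.031) or wild type replicate 3. miR-30b-5p was at -0.026 and -0.028 with those scalings, ran from -0.11 to 0.26 with each library left out, below 0 without knockout replicate 3 or wild type replicate 3, and was -0.15 without knockout replicate 3 and wild type replicate 2 together. miR-30d-5p was at -0.0038 with library totals alone, and miR-30e-5p at 0.031 without both of those libraries; the cause was not tested. miR-30c-5p and the 5 3p arms kept their sign in all 18 fits. The count of members higher in each knockout, checked in ways chosen after seeing the data, was 3 in CPM and 4 with TMM or RLE scaling. It was 3 with rows of all species summed and 1 with upper quartile scaling. With each library left out it was 3 to 4, and without knockout replicate 3 and wild type replicate 2 together it was 4. Leaving libraries out can only keep or raise this count, so those values do not check it. The log2 ratio differences of miR-30a ran from -0.34 to -0.20 and those of miR-30e from -0.41 to -0.26 over the alternatives, and none passed; with a library left out, 3 against 3 or 4 against 2 libraries cannot pass. No paired analysis was possible because the labels give no replicate numbers that tie libraries across genotypes. Depth limits the 3p arms of miR-30c and miR-30d in knockout replicate 3, with 38 to 68 reads each.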
